A study of Mus musculus with 30 samples.

Results

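The replication-dependent histone genes of the mouse supply the proteins around which newly copied DNA is wrapped. They were taken here as the protein-coding genes whose GENCODE symbol begins with H2ac, H2bc, H3c or H4c and a number, together with H1f1 to H1f6, and were chosen by symbol after earlier results of these data were known. There were 68 such genes among the 55416 genes of the count table: 6 for the linker histone H1, 18 for H2A, 19 for H2B, 12 for H3 and 13 for H4. All 68 were in the table, 54 of them on chromosome 13, 10 on chromosome 3, 3 on chromosome 11 and 1 on chromosome 6. H4c17 and H2bc15 were selected on their measured values and are given by single library with no test, which leaves 66 genes for the counts of calls.

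Bulk RNA sequencing covered the fracture callus of 30 adult mice, collected 3, 6, 10 or 14 days after a closed, non-stabilized fracture of the tibia (3-, 6-, 10- and 14-dpf). For 3-dpf the paper describes tibiae dissected near the fracture and for 6-dpf the whole callus, so the tissue taken may differ between these days. The Apex1 KO mice are the study's P-Apex1KO line, in which Prrx1-Cre removes floxed Apex1 from limb bud mesenchyme, so that Apex1 stays intact in callus cells of other origin, such as blood cells. The WT animals are littermates of several genotypes and include mice that carry Prrx1-Cre with one floxed Apex1 allele, and Cre and floxed alleles are therefore not confined to the Apex1 KO group. There were 4 WT and 4 Apex1 KO libraries at 3-dpf, 5 and 3 at 6-dpf, 4 and 3 at 10-dpf, and 4 and 3 at 14-dpf. At 14-dpf every Apex1 KO mouse and only WT replicate 1 was female, so a genotype difference fitted with sex rests on that mouse. Apex1 itself was lower in Apex1 KO by 0.67 on the log2 scale at 6-dpf (SE 0.113, adjusted p = 0.00710, edgeR) and by 0.65 at 10-dpf (SE 0.128, adjusted p = 0.0278, edgeR). Its difference was -0.15 at 3-dpf (SE 0.186, adjusted p = 0.927, edgeR) and -0.29 at 14-dpf (SE 0.189, adjusted p = 0.367, edgeR). At 3-dpf its CPM (counts scaled to a common library size) overlapped between the labels, so there the libraries are named by their labels alone. At 14-dpf its CPM did not overlap, with 19.79, 27.18, 22.86 and 26.21 in WT and 15.05, 18.61 and 14.17 in Apex1 KO. The fitted difference at 14-dpf rests on WT replicate 1, the lowest of the WT values. Counts on genes ran from 18334389 to 43111491 per library, and libraries of 10- and 14-dpf were shallower than most of those of 3- and 6-dpf. Sample names also change between 6- and 10-dpf, and no test was made across that step. Apex1 KO 3-dpf replicate 1 stood apart, with a histone level and marrow cell markers below those of the other 3 libraries of its group. Its mitosis, DNA replication, osteoblast and osteoclast genes were also the lowest of its group, and its skeletal muscle and macrophage genes the highest. Results at 3-dpf are given with and without this library.

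Replication-dependent histone genes are mostly intronless, lie in clusters and are switched on as cells enter S phase. Their messenger RNAs end in a conserved stem-loop in place of a poly(A) tail. The stem-loop binding protein, encoded by Slbp, binds it and carries the transcript through processing, translation and decay, and Npat activates the clusters downstream of cyclin E. Methods that select poly(A) tails lose most of these transcripts, whereas the libraries here were made from total RNA after removal of ribosomal and beta globin RNA. In a callus, cells that divide include periosteal progenitors and chondrocytes as well as the precursors of blood cells in the neighbouring marrow.

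The stem-loop is shown because it is the feature that sets this family apart from most other messenger RNAs. A perfect match to its consensus was found within 100 bases after an annotated stop codon in 51 of the 68 genes, beginning a median of 31 bases after the stop (range 21 to 58). Among 21665 protein-coding genes of the annotation it was found in 53, or 0.245%, and the 2 outside the family were H2bw2 and H3f4. The forms found were 5, given here as DNA with the 4 loop bases in capitals.
Form of 38 genes of classes H1, H2A, H2B and H3: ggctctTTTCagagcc
Form of 8 H4 genes, among them H4c17 and H4c18: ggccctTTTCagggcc
Form of H4c9 and H4c14: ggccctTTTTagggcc
Form of H4c2 and H4c11: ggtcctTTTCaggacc
Form of H2ac20: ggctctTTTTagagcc
The 12 H4 genes with a match thus carried another stem than the other classes. The 17 genes with no perfect match may hold a variant of the motif or a longer annotated transcript, and nothing about their processing was read from this.

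Promoters also differed by class. In the RefSeq windows of GRCm38.p6, which run from 250 bases before to 50 bases after the start and were present for 58 of the 68 genes (59 entries), the octamer ATTTGCAT, searched on both strands, lay in 7 of 15 H2B and 6 of 17 H2A entries and in none of the 6 H1, 10 H3 or 11 H4 entries. It lay in 1.74% of all 32851 windows. CCAAT lay in every H1, H2A, H2B and H3 entry and in 3 of 11 H4 entries, against 37.41% of all windows, and TATAA in 10 of 11 H4 entries, against 24.87%. AAACACA, an element described for H1 genes, lay in 5 of 6 H1 entries, 2 of 17 H2A, 2 of 15 H2B and no H3 or H4 entry, against 7.18% of all windows. The window of H2bc8 is printed since it holds the 3 first motifs and belongs to the H2B gene of highest level, and that of H2bc15 since this gene is described by library below. Capitals mark these motifs on either strand.
H2bc8, chr13:23571150-23571449, GRCm38.p6, plus strand: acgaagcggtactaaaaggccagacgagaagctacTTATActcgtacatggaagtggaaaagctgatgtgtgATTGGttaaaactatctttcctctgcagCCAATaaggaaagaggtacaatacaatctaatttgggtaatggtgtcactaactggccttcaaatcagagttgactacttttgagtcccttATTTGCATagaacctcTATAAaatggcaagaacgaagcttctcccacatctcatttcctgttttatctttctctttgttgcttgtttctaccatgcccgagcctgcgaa
H2bc15, chr13:21753826-21754125, GRCm38.p6, plus strand: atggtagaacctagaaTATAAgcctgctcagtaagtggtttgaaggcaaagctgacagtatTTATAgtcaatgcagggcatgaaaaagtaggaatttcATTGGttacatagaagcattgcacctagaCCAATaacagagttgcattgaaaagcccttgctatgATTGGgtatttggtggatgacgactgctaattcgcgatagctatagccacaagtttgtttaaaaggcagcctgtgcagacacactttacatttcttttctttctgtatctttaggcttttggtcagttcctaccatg
The H2bc15 window overlaps that of H2ac15 on the opposite strand, so these neighbours are transcribed outward from one stretch of DNA.

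Many of these genes are near copies, which limits what a count can say. Reads were 59 bases long at each end and only uniquely mapped pairs were counted. The share of 59-base words of a gene's exons that occur once in the genome was 0% for H2ac19, H2ac23, H2ac24, H2bc23 and H2bc24. The mate of a read can place a pair whose other end is repeated, so this share is a lower limit. H4c17 and H4c18 shared their whole coding sequence of 312 bases, with 0 differences, and 10.5% and 7.26% of their words occurred once. H2bc15 differed from its nearest relatives H2bc13, H2bc6 and H2bc7 at 7 of 381 coding bases, and 16.7% of its words occurred once. The first 90 coding bases of both pairs are printed, since they show how little separates the neighbours, with differences from the first of each pair in capitals.
H4c17: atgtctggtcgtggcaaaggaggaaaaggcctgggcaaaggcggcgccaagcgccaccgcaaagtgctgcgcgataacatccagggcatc
H4c18: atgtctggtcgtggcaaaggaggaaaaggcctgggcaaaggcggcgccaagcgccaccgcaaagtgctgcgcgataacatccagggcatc
H2bc15: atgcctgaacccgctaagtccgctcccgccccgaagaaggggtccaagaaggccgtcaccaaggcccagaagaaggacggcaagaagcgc
H2bc13: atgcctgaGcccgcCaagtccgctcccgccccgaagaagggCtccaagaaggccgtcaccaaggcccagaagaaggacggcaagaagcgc
Levels of such genes are uncertain where counting could split reads between copies.

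The levels of the 68 genes spanned several orders of magnitude. The 10 genes of highest mean held 50.3% of the family's summed CPM (counts scaled to a common library size with TMM factors over the 30 libraries), and the 20 lowest held 1.63%. H4 genes together held 33.6%, H1 28.3%, H2B 16.3%, H3 15.2% and H2A 6.55%. Per kilobase of annotated exon, the highest of each class over the 30 libraries were H1f5 among the linker histones (281 CPM per kb), H2ac15 for H2A (178), H2bc8 for H2B (202), H3c2 for H3 (196) and H4c8 for H4 (499). The annotation extends some exons well past the stem-loop, as for H1f3 with 7425 bases of exon against 666 of coding sequence, which lowers their value on this scale. Per kilobase of coding sequence H4c4 (876), H4c8 (752), H4c14 (706) and H1f2 (627) were highest. H3c14 was not counted in any library, H2ac18 had 1 count in all and H2ac1, known from testis, had 9, and the single count of H2ac18 stood in 1 library. H1f6, the testis-specific linker histone, had 516 counts over the 30 libraries.

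**Figure D1:**
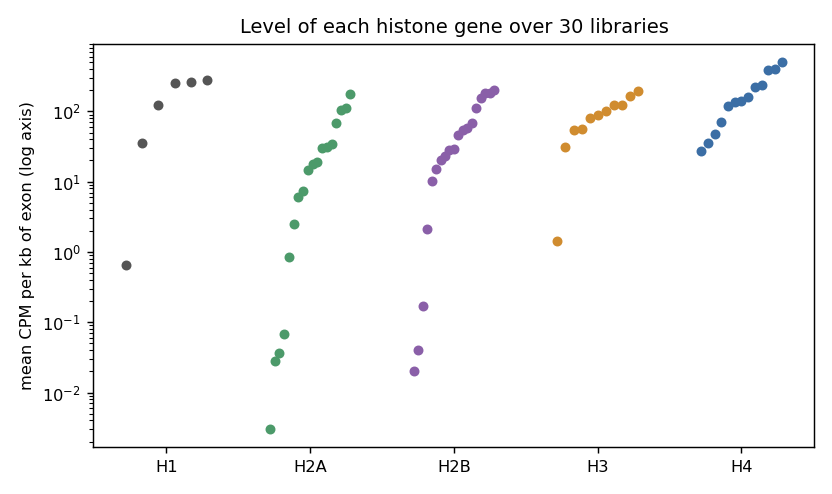
Mean CPM per kb of annotated exon of each histone gene over the 30 libraries (log axis), by class and sorted within it. H4c8 is highest at 499 and H3c14, at 0, is not drawn. The H2A and H2B genes spread widest and the H4 genes least.

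Summed over the 66 genes, the family stood highest at 3- and 6-dpf. At 3-dpf the WT libraries held 3721, 6705, 6870 and 4597 CPM and those labelled Apex1 KO 2621, 8537, 7155 and 7483 CPM. The genotypes overlapped, and the lowest value of all at 3-dpf was that of Apex1 KO replicate 1. At 6-dpf the values were 6328, 5915, 6012, 5225 and 4749 CPM in WT and 7403, 4407 and 5967 CPM in Apex1 KO, again overlapping. At 10-dpf they were 2208, 2613, 2684 and 3820 CPM in WT and 4037, 3709 and 3664 CPM in Apex1 KO, where only WT replicate 4 reached the range of the Apex1 KO libraries. At 14-dpf they were 2179, 2426, 2318 and 2559 CPM in WT and 2603, 3858 and 3351 CPM in Apex1 KO, without overlap, although the highest WT and the lowest Apex1 KO library were close. The mean ratio of Apex1 KO to WT was 1.18, 1.05, 1.34 and 1.38 at the 4 times. The lower level at 10- and 14-dpf cannot be told apart from the change of sample names and depth between 6- and 10-dpf, and in bulk tissue fewer cells of a type and less RNA per cell cannot be told apart.

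**Figure D2:**
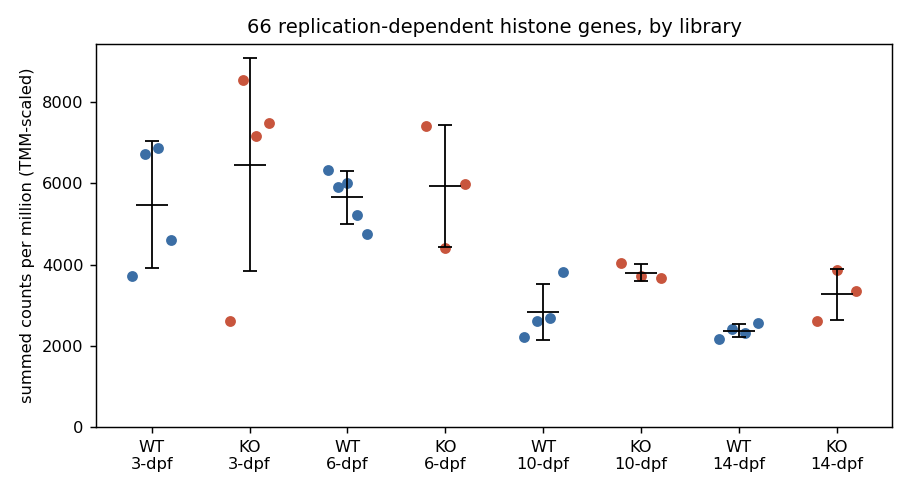
Summed CPM (TMM-scaled) of 66 replication-dependent histone genes in each library (points; blue WT, red Apex1 KO), with group mean and SD in black. Groups overlap at 3-, 6- and 10-dpf, and at 14-dpf the 3 Apex1 KO libraries (2603 to 3858) lie above the 4 WT libraries (2179 to 2559).

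H4c17 was the member that differed most between single libraries. It encodes a histone H4 and lies at chr13:21995916-21996317 (GRCm39, plus strand), 1 exon with the coding sequence shown above. At 3-dpf its counts were 8, 963, 16 and 641 in WT and 401, 1370, 1107 and 15 in the libraries labelled Apex1 KO. At 6-dpf they were 1992, 27, 1260, 754 and 1382 in WT and 13, 840 and 37 in Apex1 KO. Libraries of one group thus differed by more than an order of magnitude at both times, in either genotype. At 10-dpf WT held 1, 2, 0 and 3 counts and Apex1 KO 526, 510 and 1061. At 14-dpf WT held 0, 318, 285 and 770 and Apex1 KO 536, 551 and 648. All 4 WT libraries of 10-dpf were at or near 0, whereas at 14-dpf only WT replicate 1 was. The share of H4c17 in the counts of H4c17 and its twin H4c18 together was sorted over the libraries and cut at the 2 widest gaps. The number of 3 ranges thus follows from the method. In 11 libraries H4c17 held 0 to 1.55%, in 13 it held 29.3 to 37.5% and in 6 it held 51.1 to 55.4%. H4c18 had at least 472 counts in every library. Both genes bear on the range, since at 14-dpf Apex1 KO replicate 1, in the highest range, held 19.4 CPM of H4c17 and 17.04 CPM of H4c18, and replicate 2, in the middle range, 26.5 and 52.5 CPM.

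H2bc15, which encodes a histone H2B and lies at chr13:21938293-21938673 (GRCm39, plus strand), showed the like pattern at a higher level. At 3-dpf its counts were 479, 3878, 493 and 2750 in WT and 932, 4901, 4751 and 3729 in the libraries labelled Apex1 KO. At 6-dpf they were 6591, 560, 3862, 2403 and 3879 in WT and 3266, 2522 and 850 in Apex1 KO. WT replicates 1 and 3 of 3-dpf, WT replicate 2 of 6-dpf and Apex1 KO replicate 3 of 6-dpf were low for both genes. At 10-dpf WT held 147, 180, 138 and 225 counts and Apex1 KO 1430, 1455 and 2318. At 14-dpf WT held 113, 820, 779 and 1672 and Apex1 KO 1972, 1542 and 2082. The share of H2bc15 in the summed CPM of all H2B genes was cut into 3 ranges in the same way. It was 1.54 to 2.75% in 9 libraries, 6.64 to 10.8% in 15 and 14.8 to 17.3% in 6. The middle range itself holds a gap, from 6.64% in Apex1 KO 3-dpf replicate 1 to 9.49% in WT 14-dpf replicate 2. With these cuts the same 6 libraries were in the highest range for both genes, and 28 of 30 libraries were in the matching range. The 2 exceptions were Apex1 KO 3-dpf replicate 4 and Apex1 KO 6-dpf replicate 1, where H4c17 was near 0 (15 and 13 counts) and H2bc15 in its middle range (3729 and 3266 counts). These ranges were read from the values, are not groups of the study and were not tested.

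**Figure D3:**
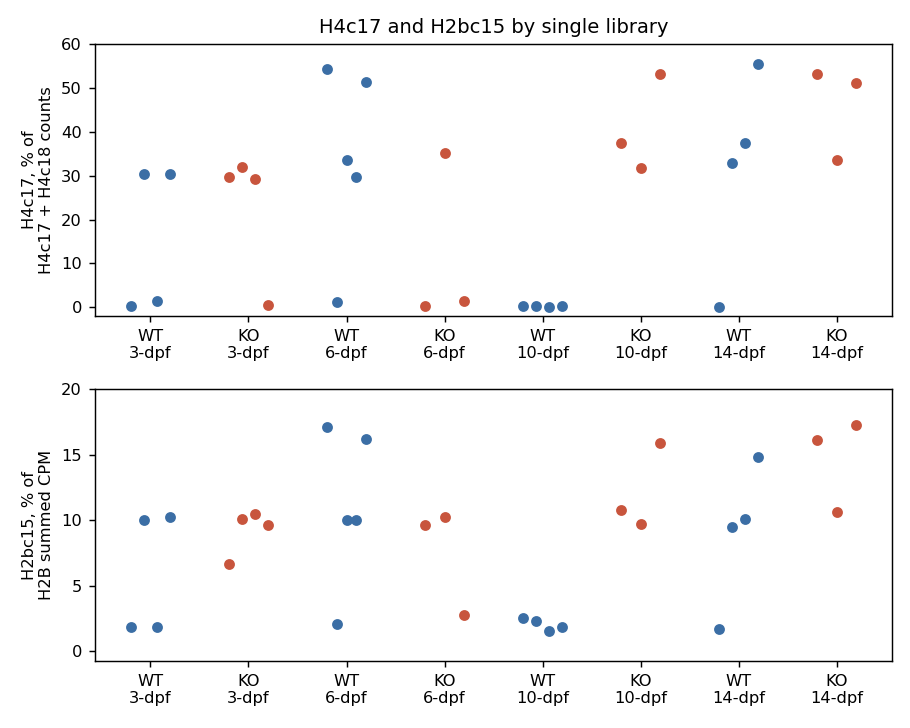
Each point is 1 library (blue WT, red Apex1 KO). The upper panel gives the share of H4c17 in the counts of H4c17 and H4c18, and the lower panel the share of H2bc15 in the summed CPM of the H2B genes. Both shares were cut into 3 ranges at their widest gaps, and the 4 WT libraries of 10-dpf lie in the lowest.

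Other members on chromosome 13 moved with these genes across the 30 libraries, relative to the family's summed level. They were chosen after their values were seen, and libraries share depth and tissue, so r is a description. With H2bc15, r was 0.957 for H2bc14, 0.929 for H2bc11, 0.838 for H4c17, 0.688 for H2bc4, 0.654 for H2ac22 and 0.620 for H3c3. It was -0.838 for H4c9 and -0.829 for H2bc22, so these were low where H2bc15 was high. H2ac15, whose promoter window overlaps that of H2bc15, had r = 0.272, and H2bc13, H2bc6 and H2bc7, equally near to it in sequence, -0.101, 0.189 and -0.243. H4c18, with the coding sequence of H4c17, had r = -0.306 with H4c17. Counts of genes that share so much sequence are uncertain, and the cause of the pattern was not tested.

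The first comparison asks whether the genotypes differed at each time point. Besides sex, the labels give each replicate a number and a sample name and do not say how replicates relate to one another. The p-values therefore measure the spread between these libraries. The median difference of each of the 5 classes was above 0 at each time, but few members passed the test over all genes. At 3-dpf 58 of the 66 genes passed the filter on low counts. None was called higher and none lower with edgeR, and none had an unadjusted p under 0.05 or was called by DESeq2, while 0% of all 19866 genes tested were called higher and 0% lower. Of all genes 6.12% had an unadjusted p under 0.05 with edgeR, and DESeq2 called 0.413% higher and 0.0151% lower. The log2 differences ran from -0.26 to 1.04 with a median of 0.41, against -0.0028 over all genes, and 57 of 58 were above 0. H4c8, the H4 gene of highest level per kilobase, had a difference of 0.43 (SE 0.368, adjusted p = 0.897, edgeR), with 182, 326, 326 and 205 CPM in WT and 122, 406, 352 and 359 CPM in the libraries labelled Apex1 KO. Replicates 2, 3 and 4 of these lay above every WT library and replicate 1 below them all. Without that library none was called either, but 43 of 58 had an unadjusted p under 0.05 (10.9% of all genes) and the median was 0.59, so the result at 3-dpf depends on it. Its summed level of 9 neutrophil precursor genes was 404 CPM, against 1640 to 3200 CPM in WT. Other genes differed there too. Its mean log2 CPM was 5.12 for osteoblast genes, against 6.92 to 7.33 in the other libraries labelled Apex1 KO. It was 5.45 for mitosis genes, against 6.23 to 6.27, and 9.75 for skeletal muscle genes, against 8.42 to 9.21. The part of any of these in the result was not tested.

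At 6-dpf 1 of 58 genes was called higher and none lower, where 5.31% of all 20260 genes tested were higher and 5.61% lower, so the family's share was below the background. The median difference was 0.21, with 53 of 58 above 0, against 0.0125 over all genes, and it was -0.02 without Apex1 KO replicate 1. The gene called was H2ac25, an H2A gene on chromosome 11 that overlaps Trim17 on the same strand, so their reads cannot be told apart with certainty. Its CPM were 5.44, 4.29, 5.27, 4.503 and 4.39 in WT and 7.55, 7.397 and 6.91 in Apex1 KO. The genotypes did not overlap, and the difference was 0.68 (SE 0.148, adjusted p = 0.0205, edgeR). H1f5, the most abundant linker histone gene per kilobase of exon, differed by -0.03 (SE 0.170, adjusted p = 0.949, edgeR).

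At 10-dpf 6 of 58 genes were called higher and none lower, where 3.01% of all 18910 genes tested were higher and 3.44% lower. The median difference was 0.42 against -0.0031 over all genes, 54 of 58 were above 0 and 28 had an unadjusted p under 0.05, as did 24.3% of all genes. The 6 were H2bc14, H2bc11, H2ac22, H3c3, H2bc4 and H2bc6, and the first 5 of these are the members other than H4c17 whose libraries were most like H2bc15. H2bc14, an H2B gene near the end of the cluster, held 9.92, 11.4, 12.9 and 15.8 CPM in WT and 33.5, 29.4 and 50.7 CPM in Apex1 KO. Its difference was 1.56 (SE 0.186, adjusted p = 0.00933, edgeR), and the 4 WT libraries are those in the lowest range of H2bc15. H2bc11 differed by 1.36 (SE 0.186, adjusted p = 0.0125, edgeR), with 7.17 to 12.8 CPM in WT and 20.02 to 30.3 CPM in Apex1 KO. H2ac22 differed by 1.01 (SE 0.192, adjusted p = 0.0252, edgeR), H3c3 by 0.92 (SE 0.167, adjusted p = 0.0254, edgeR) and H2bc4 by 0.89 (SE 0.107, adjusted p = 0.00798, edgeR). For none of these did the genotypes overlap. At this time every WT library was low and every Apex1 KO library was not, so for these genes genotype and the range of H2bc15 cannot be told apart. H2bc6, which shares annotated exon with H1f4 on the same strand, is the sixth and was little like H2bc15 (r = 0.189). It held 29.9, 31.8, 37.2 and 45.3 CPM in WT and 50.1, 51.1 and 55.0 CPM in Apex1 KO, a difference of 0.51 (SE 0.106, adjusted p = 0.0312, edgeR). Of the classes, 4 calls were for H2B, 1 for H2A and 1 for H3, and none for H1 or H4, where the medians were 0.47 and 0.37. The count of calls was 0 without Apex1 KO replicate 1, where 0.113% of all genes were called higher, and 38 without WT replicate 4, the WT library with the highest histone level, where 5.38% were, so it rests on single libraries.

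At 14-dpf 10 of 58 genes were called higher and none lower, where 4.28% of all 20228 genes tested were higher and 7.04% lower. The median difference was 0.57 against 0.043 over all genes, with 50 of 58 above 0 and 25 with an unadjusted p under 0.05, as had 27.6% of all genes. The count was 0 (median 0.28) with all 30 libraries in one model, where 12.7% of all genes were called higher. It was 25 with no sex term, where 18.8% were, 2 without WT replicate 2 (2.00%) and 30 without Apex1 KO replicate 1 (6.97%). The calls were 2 of 6 H1, 1 of 14 H2A, 3 of 15 H2B, 2 of 11 H3 and 2 of 12 H4 genes. The largest differences among the genes called were again those of H2bc14 (1.93, SE 0.4196, adjusted p = 0.0290, edgeR), H2bc11 (1.92, SE 0.406, adjusted p = 0.0250, edgeR) and H2ac22 (1.69, SE 0.372, adjusted p = 0.0262, edgeR). H2bc14 held 8.95, 19.99, 18.9 and 33.8 CPM in WT and 26.03, 38.5 and 35.9 CPM in Apex1 KO, so WT replicate 4 lay within the range of Apex1 KO. WT replicate 1, the lowest, is the only female WT mouse and the WT library of 14-dpf in the lowest range of H2bc15. Without a sex term and without that library, the 3 differences were 0.51, 0.45 and 0.24 and none was called. In that fit 16 other histone genes were called, where 17.6% of all genes were higher and 16.6% lower. H1f1, a linker histone gene chosen for mention after its values were seen since its p was the smallest, held 94.1, 107, 112 and 124 CPM in WT and 192, 202 and 204 CPM in Apex1 KO. The genotypes were far apart, with a difference of 1.11 (SE 0.129, adjusted p = 0.00244, edgeR), and H1f1 was little like H2bc15 (r = 0.273). H1f5, H2bc8, H3c2 and H4c8, each of highest level per kilobase in its class, differed by 0.36 to 0.70 and H2ac15 by 0.79 (SE 0.213, adjusted p = 0.0522, edgeR), none past the threshold.

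**Figure D4:**
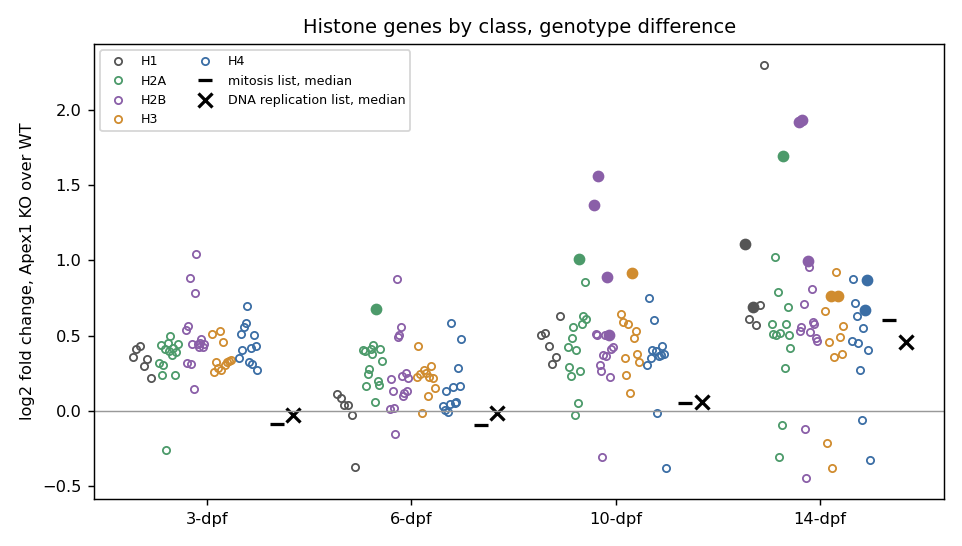
Log2 fold change of Apex1 KO over WT (edgeR, sex in the model) for the 58 histone genes that passed the filter at each time point, by class; filled points passed the threshold of 0.05 over all genes. Bars and crosses give the medians of the mitosis and DNA replication lists, which lie near 0 at 3-, 6- and 10-dpf and at 0.61 and 0.46 at 14-dpf, while most histone genes lie above 0 at every time.

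Markers of several cell types also differed between genotypes. The summed CPM of 9 neutrophil precursor genes, such as Mpo and Elane, ran from 815 to 1710 in WT and 1660 to 3150 in Apex1 KO at 10-dpf, and from 855 to 1270 and 1800 to 2220 at 14-dpf. That of 8 erythroid genes, such as Klf1, ran from 902 to 1610 and 1190 to 2010 at 10-dpf, and from 785 to 867 and 1790 to 2150 at 14-dpf. None of these genes was at 0 in any group, and their part in the histone differences was not tested. Of the genes tested, 1 of 9 neutrophil precursor genes was called higher at 10-dpf and 5 of 9 at 14-dpf, and none of 8 and 5 of 8 erythroid genes. The 9 skeletal muscle genes summed to 1110 to 3830 CPM in WT and 2830 to 9750 CPM in Apex1 KO at 14-dpf, with none called, and 8 of them were called higher at 6-dpf. Of 8 cartilage genes none was called at 10-dpf and all 8 were called higher at 14-dpf (median 2.53). Their summed level at 14-dpf was 1520 to 8170 CPM in WT and 5910 to 9230 CPM in Apex1 KO, which overlapped. Of 6 osteoclast genes 5 were called lower at 10-dpf and 6 at 14-dpf (medians -1.87 and -2.56), of 8 osteoblast genes 5 and 4 were lower, and of 8 macrophage genes 4 were higher at both times and 1 and 2 lower. Of 8 T and NK genes 2 were higher at 10-dpf and 1 at 14-dpf, and of 6 endothelial genes 1 and 3 were lower. No B lineage gene was called at either time, with medians of 0.56 and 2.00. At 6-dpf 6 of 8 macrophage, 5 of 8 T and NK and 3 of 10 B lineage genes were higher, beside 1 histone gene and 5.31% of all genes. All 8 cartilage and 7 of 8 osteoblast genes were lower then, beside 5.61% of all genes. The part of these cells in the histone differences was not tested either.

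The next comparison asks whether the genotype difference itself changed. No member was called for a change from 3- to 6-dpf (none with an unadjusted p under 0.05 and none by DESeq2), where 0.318% of 20468 genes were called higher and 0.987% lower. Of all genes 12.5% had an unadjusted p under 0.05 there, and DESeq2 called 0.962% higher and 2.55% lower. None was called for a change from 10- to 14-dpf either (3 with an unadjusted p under 0.05, none by DESeq2), where 0.0406% of 19705 genes were called higher and 0.396% lower. Of all genes 13.1% had an unadjusted p under 0.05 there, and DESeq2 called 0.589% higher and 1.77% lower. The larger number of calls at 14- than at 10-dpf is therefore not shown to be a difference between the times.

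Within a genotype few members changed with time. Changes from 3- to 6-dpf, here and below, cannot be told apart from a difference in the tissue dissected. From 3- to 6-dpf 1 of 58 was called higher in WT and none lower, against 15.4% and 15.1% of all genes, and none in Apex1 KO with edgeR (2 with an unadjusted p under 0.05, 1 called by DESeq2), against 7.10% and 6.91%. In that Apex1 KO comparison 28.4% of all genes had an unadjusted p under 0.05, and DESeq2 called 9.19% higher and 8.64% lower. From 10- to 14-dpf 1 was called higher and 2 lower in WT, against 6.19% and 4.92% of all genes, and none in Apex1 KO (4 with an unadjusted p under 0.05, none called by DESeq2), against 0.0304% and 0.228%. In that Apex1 KO comparison 14.3% of all genes had an unadjusted p under 0.05, and DESeq2 called 0.893% higher and 1.9% lower. The genes called in WT fall outside the rule for naming and were chosen after their values were seen. H3c15, an H3 gene of chromosome 3 with a mean of 1.45 CPM, was the gene called higher in WT both from 3- to 6-dpf (0.95, SE 0.337, adjusted p = 0.0437, edgeR) and from 10- to 14-dpf (0.85, SE 0.234, adjusted p = 0.0334, edgeR). H3c13 fell by 0.58 (SE 0.145, adjusted p = 0.0222, edgeR) and H2ac10 fell by 0.40 (SE 0.118, adjusted p = 0.0437, edgeR) from 10- to 14-dpf in WT.

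Whether the family followed proliferation genes was asked in 2 ways, by group and by library. A list of 35 genes of mitosis, such as Mki67 and Top2a, and a list of 44 genes of DNA replication, such as Mcm5 and Pcna, served for comparison. By group the answer differed with the comparison. In WT from 3- to 6-dpf 26 of the 35 mitosis genes and 25 of the 44 replication genes fell, with medians of -0.51 and -0.45, whereas no histone gene was called lower and the histone median was -0.05. In Apex1 KO 15 and 6 of these genes fell, with medians of -0.49 and -0.34, beside a histone median of -0.18. In WT from 10- to 14-dpf 27 mitosis genes and 15 replication genes fell, with medians of -0.45 and -0.29, and the histone median was -0.29 with 2 genes called lower. In Apex1 KO from 10- to 14-dpf no gene of either list or of the histones was called with edgeR, and the medians were 0.013 for mitosis, 0.065 for DNA replication and -0.17 for the histones. Between genotypes, no gene of either list was called at 3- or 10-dpf, with medians of -0.09 and -0.03 at 3-dpf and of 0.06 and 0.06 at 10-dpf, beside histone medians of 0.41 and 0.42. At 6-dpf 1 mitosis gene was called lower and the medians were -0.09 and -0.02. At 14-dpf 19 mitosis genes and 15 replication genes were higher in Apex1 KO and none lower, with medians of 0.61 and 0.46, close to the histone median of 0.57. Mki67 differed by 1.09 (SE 0.119, adjusted p = 0.00203, edgeR), Top2a by 0.70 (SE 0.163, adjusted p = 0.0320, edgeR) and Pcna by 0.56 (SE 0.107, adjusted p = 0.0155, edgeR) at that time. The histone genes thus moved beside proliferation genes at 14-dpf, and at 10-dpf the 6 histone calls stood beside none among proliferation genes. All of these calls but H2bc6 were for genes whose genotype difference cannot be told apart from the range of H2bc15. None of the histone genes was called without Apex1 KO replicate 1 of 10-dpf.

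A score was taken for each library as the mean log2 CPM of the 58 histone genes that passed the filter over all libraries, and likewise for the lists. The histone score minus the DNA replication score was -0.71, -0.41, -0.30 and -0.20 in the WT libraries of 10-dpf and 0.070, 0.0038 and 0.014 in those of Apex1 KO, which did not overlap. At 14-dpf it was -0.39, -0.24, -0.42 and -0.25 in WT and -0.63, -0.085 and -0.16 in Apex1 KO, which overlapped. At 3-dpf it was -0.26, 0.25, 0.038 and -0.065 in WT and -0.25, 0.50, 0.44 and 0.45 in the libraries labelled Apex1 KO, of which all but replicate 1 lay above WT. At 6-dpf it ran from 0.17 to 0.54 in WT and 0.47 to 0.82 in Apex1 KO.

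By library the family followed proliferation genes closely at 3- and 6-dpf and more loosely later. With each group's mean taken off, r of the histone score with the DNA replication score was 0.962 (rho 0.909) over the 16 libraries of 3- and 6-dpf, and 0.897 over 14 libraries without the 2 farthest from the median. With the mitosis score it was 0.927 (rho 0.838), and 0.837 without the 2 farthest. Over the 14 libraries of 10- and 14-dpf r was 0.60 (rho 0.574) with DNA replication and 0.467 (rho 0.609) with mitosis, and 0.446 and 0.47 without the 2 farthest. Of the 58 genes, 53 had r above 0.5 with the DNA replication score at 3- and 6-dpf (median 0.917) and 25 at 10- and 14-dpf (median 0.459). All 5 classes tracked DNA replication at the early times, from 0.902 for H3 to 0.971 for H4, and at the late times r was lowest for H1 (0.246) and from 0.541 to 0.586 for the other classes. The H1 value takes in H1f6, with a mean of 0.596 CPM and r = -0.457, while r was 0.705 for H1f3, 0.683 for H1f5, 0.651 for H1f1, 0.560 for H1f4 and 0.384 for H1f2. Scores of several cell types, marrow cells among them, tracked the histone score as well. At 3- and 6-dpf r was 0.931 for erythroid and 0.913 for neutrophil precursor genes, and -0.789 for macrophage genes. At 10- and 14-dpf the values were 0.609, 0.628 and 0.299. In the same order of times r was 0.854 and 0.664 for T and NK genes, and 0.788 and 0.553 for B lineage genes. It was 0.733 and -0.184 for osteoblast, -0.524 and 0.524 for skeletal muscle and 0.547 and -0.292 for osteoclast genes. For cartilage genes it was 0.211 and -0.134, and for endothelium -0.283 and -0.467. At the late times the value for T and NK genes was thus above that for DNA replication. Libraries of a day share dissection and depth, so these values describe them and carry no test, and whether the share of marrow in the dissected callus sets both scores was not tested.

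**Figure D5:**
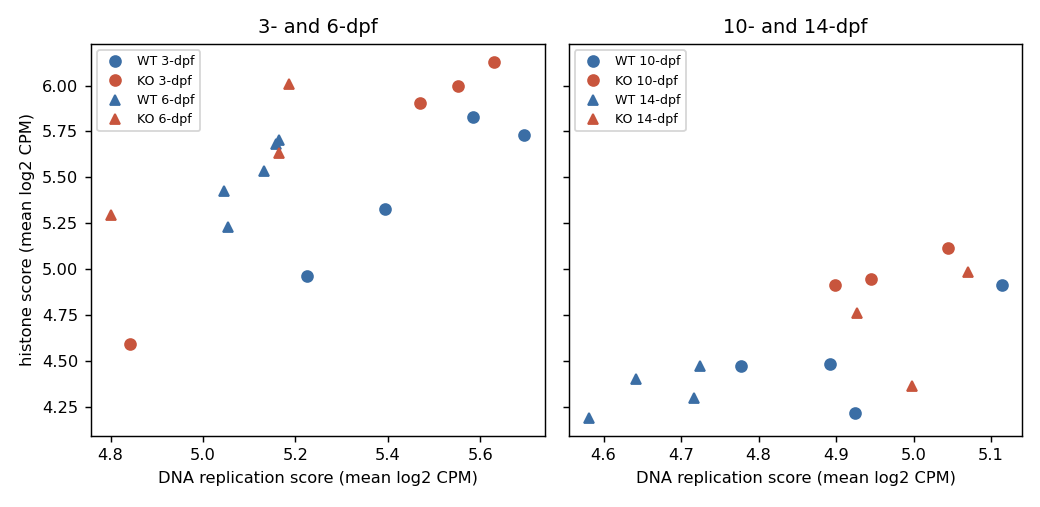
Histone score against DNA replication score (each a mean log2 CPM) for the 16 libraries of 3- and 6-dpf and the 14 libraries of 10- and 14-dpf, coloured by genotype (blue WT, red Apex1 KO) and shaped by day. Points of a group rise together at 3- and 6-dpf, where r of deviations from the group means was 0.962, and scatter more later, where it was 0.60.

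Few genes that serve histone supply were called between genotypes. Of 13 genes of histone mRNA processing none was called between genotypes at any time, and their medians were -0.04, -0.11, -0.01 and -0.03. Slbp differed by 0.12 at 10-dpf (SE 0.0862, adjusted p = 0.460, edgeR) and by 0.44 at 14-dpf (SE 0.142, adjusted p = 0.0906, edgeR), and Npat by -0.03 (SE 0.0761, adjusted p = 0.871, edgeR) and 0.20 (SE 0.156, adjusted p = 0.447, edgeR). Of 10 histone chaperones 1 was called, Asf1b, which hands H3 and H4 to the assembly machinery and was higher at 14-dpf by 0.72 (SE 0.158, adjusted p = 0.0259, edgeR). The chaperone median at 14-dpf was 0.15, with 7 of 10 above 0. Of these genes 4 had an unadjusted p under 0.05 with edgeR, as had 27.6% of all genes. Of the 10 genes listed as replication-independent histones, 2 were lower at 14-dpf, H1f10 by 1.62 (SE 0.256, adjusted p = 0.00792, edgeR) and Macroh2a2 by 1.61 (SE 0.227, adjusted p = 0.00529, edgeR), and the median of the list was 0.016. At 6-dpf H2aj was higher by 0.50 (SE 0.134, adjusted p = 0.0420, edgeR) and H1f0 lower by 0.68 (SE 0.146, adjusted p = 0.0193, edgeR). In WT from 3- to 6-dpf 5 chaperones fell, among them Nasp, which carries H1 and stores soluble H3 and H4, by 0.81 (SE 0.0944, adjusted p = 1.49e-05, edgeR). Chaperones thus fell beside the proliferation genes between these days, while the histone genes were not called lower.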

How the data were processed

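The authors made stranded total RNA libraries, aligned 59-base paired reads to mm39 with STAR 2.7.0d and counted uniquely mapped, reverse-stranded pairs on Ensembl genes with featureCounts. The deposited values are raw counts per gene. Symbols and positions came from GENCODE M39 (GRCm39), a later annotation, and 54749 of 55416 IDs matched. Depth was 18334389 to 43111491 counts per library, and with 3 to 5 mice per group their number limits precision. Each time point, and each pair of 3- and 6-dpf or 10- and 14-dpf, was fitted with edgeR 4.0.16 in R 4.3.3: filterByExpr, TMM, sex in the model, robust quasi-likelihood F test, Benjamini-Hochberg adjustment over all genes tested, threshold 0.05. SE is the change over the square root of F. The script was tested on simulated data. Scores are mean log2 CPM with a prior count of 2. Genes, lists and tests were chosen with earlier results of these data known. Named genes are H4c17 and H2bc15, the highest per kb of exon in each class, per time point the 3 largest called differences each way (all where 6 or fewer), any gene with 1 library over 3 times the next, and 8 reference genes. Alternatives were DESeq2 1.42.0, no sex term, other scalings and filters, the 20 most abundant genes left out, all libraries in one model, a replicate block and each library left out.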

Additional observations from a re-analysis of the deposited data

Results flagged for a closer look

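In 115 comparisons of a value within a group of 4 or 5 libraries, 5 values, from 3 libraries, lay apart from the rest of their group by Dixon's 95% limit, which chance alone gives in about 1 in 20 groups. The histone score of Apex1 KO 3-dpf replicate 1 was 4.593, against 5.907 to 6.129 in the other 3. WT 10-dpf replicate 4 was the highest for H1f3 (224.9 CPM against 147.2 to 159.9), H3c13 (77.14 against 49.67 to 53.38) and H4c4 (236.3 against 131.8 to 145.2). WT 14-dpf replicate 4 was the highest for H1f3 (150.5 CPM against 135.8 to 136).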

How the results depend on the processing

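Of the counts of called members under settings other than leaving out a library, 48 stayed within 1.5 times and 19 did not. With a library left out, 81 stayed and 38 did not. Those that stayed include comparisons with no call in either fit, so these tallies say little of how firm the calls are. The share of all genes called higher in the same fit is given in parentheses. In the main fits it was 5.31% at 6-dpf, 3.01% at 10-dpf and 4.28% at 14-dpf. At 6-dpf the count was 0 with a replicate block (1.25%). At 10-dpf it was 15 with DESeq2 (6.33%), 11 with no filter (2.9%), 27 with the block (3.78%) and 3 with all 30 libraries in one model (3.31%). At 14-dpf it was 18 with DESeq2 (7.12%), 25 with no sex term (18.8%), 22 with library size alone (9.28%) and 16 with no filter (3.13%). It was 19 with the block (6.66%) and 0 in the model of all libraries (12.7%). With neither the sex term nor WT replicate 1, a setting chosen after seeing the data, it was 16 (17.6%). The median at 14-dpf was 0.84 with library size alone and 0.28 in the model of all libraries. From 3- to 6-dpf DESeq2 called 1 in Apex1 KO, where 9.19% of all genes were higher and 8.64% lower. Library size alone gave 0 in WT, where 9.29% of all genes were higher and 34.1% lower. From 10- to 14-dpf, with the shares of all genes higher and lower, the WT count was 5 with DESeq2 (8.02% and 6.44%). It was 5 with at least 10 counts in every library (7.7% and 5.79%) and 1 with the block (4.67% and 3.61%). The Apex1 KO count was 1 with no sex term (0.809% and 2.7%) and 1 with the block (0.467% and 2.86%). The labels do not pair same-numbered mice, whose deviations correlated from -0.25 to 0.39, so the block is no paired analysis.

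Differences that changed sign, none of them called, were those of H3c2 at 3-dpf (-0.027 with the block), and at 6-dpf H1f5 (0.17 with library size alone, 0.10 without WT replicate 2, and -0.19 to 0.14 when Apex1 KO replicates were left out in turn), H2bc8 (-0.094 with the block) and H4c8 (-0.026 with the block). Leaving out 1 library at 6-dpf, the median ran from -0.025 to 0.32, H2bc8 from -0.020 to 0.28, H3c2 from -0.073 to 0.47 and H4c8 from -0.066 to 0.31, with the lowest value of each without Apex1 KO replicate 1. At 10-dpf H3c2 ran from -0.24 (without Apex1 KO replicate 1) to 0.34 (without WT replicate 4). The cause was not tested.

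Leaving out 1 library gave 0 to 4 calls at 6-dpf, 0 to 38 at 10-dpf (0 without Apex1 KO replicate 1, where the median was 0.17, and 38 without WT replicate 4, where it was 0.61) and 2 to 30 at 14-dpf (2 without WT replicate 2, 30 without Apex1 KO replicate 1). The share of all genes called higher ran from 1.71% to 5.99% at 6-dpf, 0.113% to 5.38% at 10-dpf and 2% to 8.32% at 14-dpf. Leaving out 1 library gave 0 to 3 calls in WT and 0 to 2 in Apex1 KO from 3- to 6-dpf, and 0 to 6 and 0 to 1 from 10- to 14-dpf. The shares higher were 11.9% to 17% in WT and 3.2% to 8.01% in Apex1 KO, then 3.23% to 7.43% and 0% to 0.214%. Those lower were 10.5% to 16.8% and 2.63% to 7.99%, then 2.69% to 6.72% and 0% to 1.07%. The fit at 14-dpf with sex could not be fitted without WT replicate 1.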
